A study of Mus musculus with 1307 samples.

Results

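The 8 genes described here, for bone morphogenetic protein (BMP) ligands and for secreted proteins that bind or modulate them, were followed through the cells of the mouse heart. They are the ligand genes Bmp2, Bmp4 and Gdf10 and the antagonist or modulator genes Chrdl1, Fst, Grem1, Smoc1 and Smoc2. The 8 were chosen by name and found by symbol among 46517 genes, 1 row each. Of the 8, 7 passed the filter on low counts in the main fit, and Grem1 did not.

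BMPs are secreted dimers of the transforming growth factor beta family. They bind pairs of serine-threonine kinase receptors, which phosphorylate SMAD proteins that switch on target genes such as the Id genes. Secreted antagonists hold the ligands away from their receptors, so that the signal a cell receives depends on ligand and antagonist together. In the heart the pathway is best known for forming the endocardial cushions, from which the valves grow, and it also acts on vascular smooth muscle and endothelium.

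Read counts were available for 1307 single cells of 8 adult mice with no treatment in the labels, each cell sequenced by Smart-Seq2, which reads full-length cDNA and has no molecular identifiers. Hearts were dissociated with a muscle dissociation kit and collagenase and sorted into wells, and the labels used here do not say on which gate. By strain or genotype, 949 cells were from 3 animals carrying both reporters (ACTA2GFP:CSPG4dsRED) and 352 from 3 C57BL/6 animals. A CSPG4dsRED animal and an ACTA2GFP animal added 3 cells each. Acta2 encodes smooth muscle actin and Cspg4 the NG2 proteoglycan of mural cells; the labels do not give the reporters' promoters. Ages were stated as 8 to 30 weeks. All animals are male by the design text, but double-reporter mouse 3 is labelled female and the ACTA2GFP animal both female and male. Double-reporter mice 1, 2 and 3 gave 368, 245 and 336 cells, and C57BL/6 mouse 1 gave 347. Each of these 4 mice was sorted to a separate plate, and differences between mice and between plates cannot be told apart. Median depth per cell was 340987, 220866, 208888 and 307957 counts in these 4 mice. The other 11 cells came from 4 mice and entered no test.

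Cells were grouped into classes by clustering without the 8 genes and were named from marker lists. The fibroblast types were valve fibroblast-like (161 cells; 7 of 8 markers raised), matrix fibroblast-like (148 cells; 6 of 8) and interstitial fibroblast-like (124 cells; 8 of 8). Contractile and perivascular cells were smooth muscle-like (228 cells; 8 of 8), pericyte-like (71 cells; 8 of 8) and Vtn-positive mural cells (102 cells; 5 of 6). Endothelium came almost wholly from C57BL/6 mouse 1, with capillary (199), arterial (38), endocardial (70) and lymphatic (14) cells. Schwann-like cells numbered 76 and were the only class with at least 10 cells in all 4 large mice. The Vtn-positive mural cells carried smooth muscle and pericyte markers but also fibroblast ones. Their 10 fibroblast markers summed to 14470 and 15470 CPM (counts per 1000000) in 2 mice, against 4118 to 4672 in smooth muscle-like and 20180 to 31310 in valve fibroblast-like cells. None of the markers that named this cluster was among its 10 leading genes. Chrdl1, which was withheld from clustering, led them. Interstitial cells came mostly from double-reporter mouse 3 (114 of 124), so that this class, that plate and the label female cannot be told apart. Of 148 matrix cells, 96 were of mouse 3, 45 of mouse 2 and 5 of mouse 1, so that class and mouse were partly mixed.

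Levels are CPM on counts summed per mouse and class, over sums of at least 10 cells. The level plot gives 7 of the genes in every class and mouse. By CPM, Smoc2 and Bmp4 led in interstitial, Smoc2, Gdf10 and Smoc1 in matrix, and Chrdl1 and Bmp4 in valve and in Vtn-positive mural cells. Fst led in Schwann-like and Smoc1 in endocardial cells. Per kilobase of exon the highest class mean was 499.6 CPM for Smoc2 in interstitial cells, followed by 231.9 for Smoc1 in endocardial cells. On the same scale Smoc2 stood at 176.1 in matrix cells, Bmp4 at 137.5 in interstitial cells and Chrdl1 at 120.7 in Vtn-positive mural cells. Per kilobase the order of the leading genes named above changed in matrix and valve cells, and that of lower genes in other classes too. Bmp4 (91.3) lay above Smoc1 (66.8) and Gdf10 (57.5) in matrix cells, and above Chrdl1 in valve cells (79.1 against 50.1).

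**Figure D1:**
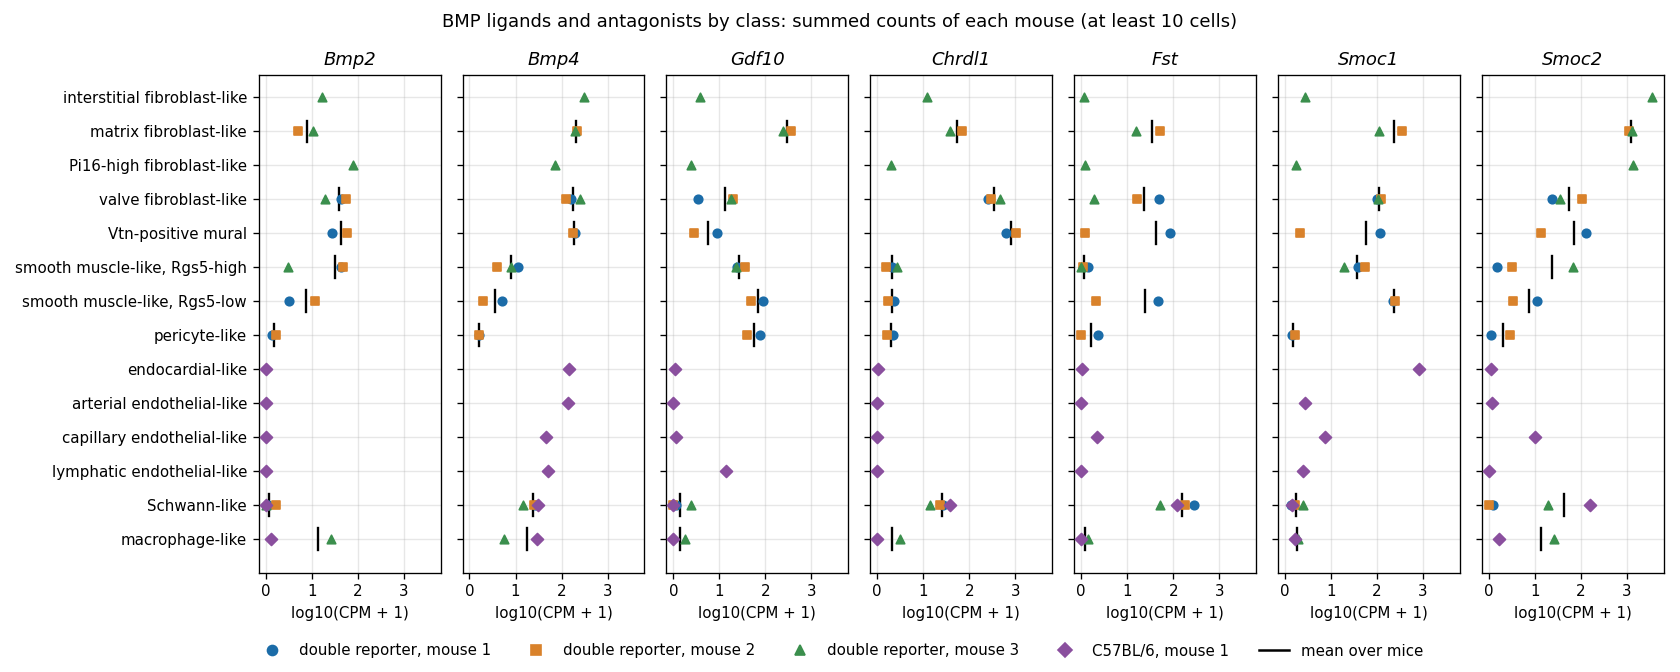
Level of 7 genes (Grem1 left out) as log10(CPM + 1) by cell class. Each point is the summed counts of 1 mouse in a class of at least 10 cells, and lines mark means over mice. Smoc2 in interstitial cells (3473) and Chrdl1 in Vtn-positive mural cells (618 and 1014) sit above the other classes of their gene.

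Bmp4, a ligand known from cushion and vessel development, lies at chromosome 14, 46383520 to 46390669, minus strand (GRCm38). It was the ligand with the most counts, present in 601 of 1307 cells. Of its exonic bases, 89 overlap Gm15217 on the opposite strand, and reads of the pair could not be told apart there. Gdf10, also called BMP3b, is a divergent family member at 14:33923587-33937983, plus strand. These are the ligands of the set for which RefSeq promoter sequence was at hand. They contrast in level: Bmp4 was spread over stromal and endothelial classes, and Gdf10 was highest in 1 fibroblast class. The 250 bases before each start, GRCm38.p6, are shown 5′ to 3′ in the gene's direction, with capitals marking the GC box GGGCGG on either strand.
Bmp4, chr14:46390670-46390919, minus strand: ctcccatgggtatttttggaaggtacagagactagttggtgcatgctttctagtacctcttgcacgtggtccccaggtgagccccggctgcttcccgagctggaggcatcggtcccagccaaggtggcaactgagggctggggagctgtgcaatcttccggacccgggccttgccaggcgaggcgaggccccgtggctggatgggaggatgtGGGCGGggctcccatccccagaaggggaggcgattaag
Gdf10, chr14:33923337-33923586, plus strand: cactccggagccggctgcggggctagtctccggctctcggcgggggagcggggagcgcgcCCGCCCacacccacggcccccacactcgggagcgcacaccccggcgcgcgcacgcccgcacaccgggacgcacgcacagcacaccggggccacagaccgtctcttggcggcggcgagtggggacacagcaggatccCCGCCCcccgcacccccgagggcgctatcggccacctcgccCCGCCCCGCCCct
The Bmp4 window holds 1 GC box, 38 bases before the start, at 63.2% GC. The Gdf10 window is richer in GC (78.8%) and holds 4 boxes, beginning 190, 54, 13 and 8 bases before the start, the last 2 overlapping. Among all 32851 RefSeq promoters of this length, 32.7% hold the motif. The match is a description of the letters and was not tied to the levels below.

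Bmp4 was high in fibroblasts and Vtn-positive mural cells and low in the contractile classes. In interstitial cells it reached 309 CPM in double-reporter mouse 3. Over all mice, 109 of 124 interstitial cells (87.9%, exact 95% interval 80.8 to 93.1, and 76.6% after thinning each cell to 50000 counts) held a count. Of these 124 cells, 114 were of mouse 3. Intervals of shares, here and below, pool the cells of all mice and leave out the spread between mice. Matrix cells gave 216 and 194 CPM in double-reporter mice 2 and 3, and Vtn-positive mural cells 190 and 175 in mice 1 and 2. Valve cells gave 162, 122 and 250 in mice 1, 2 and 3, a range that contains both of those classes, so that these 3 classes were not separated. Endocardial (145) and arterial cells (139) of C57BL/6 mouse 1 lay at a like level, and capillary cells (46.0) and lymphatic cells (48.5) lower. Endothelial values rest on 1 mouse and were not tested. Schwann-like cells held 25.9, 24.4, 13.8 and 29.7 CPM. Smooth muscle-like cells held 7.49, 2.22 and 6.36, and pericyte-like cells 0.619 and 0.647. In sums of at least 10 cells, the mice of these last 2 classes did not overlap with any of the fibroblast mice. Over all 71 pericyte-like cells Bmp4 was at 20.59 CPM, most of it from cells of mice with too few for a sum.

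Bmp2, a close relative of the Drosophila decapentaplegic protein and of Bmp4, lies at 2:133552159-133562885, plus strand. It was found in fewer cells, 142 of 1307. Valve cells gave 42.2, 54.4 and 18.5 CPM in double-reporter mice 1, 2 and 3, with a count in 40 of 161 cells. Vtn-positive mural cells gave 26.9 and 56.7, and smooth muscle-like cells 24, 33.3 and 6.36. These 3 classes overlapped, and in both valve and smooth muscle-like cells mouse 3 was lowest. Interstitial cells gave 15.7 and matrix cells 3.95 and 9.76. Pericyte-like cells were near 0, at 0.344 and 0.647, and none of the 38 arterial cells had a count, which allows up to 0.251 CPM at 3 counts. Thus within the mural classes Bmp2 was seen in smooth muscle-like and Vtn-positive cells. Macrophage-like cells of mouse 3 held 24.7 CPM and those of C57BL/6 mouse 1 held 0.339. The 78.8 CPM of the 13 Pi16-high fibroblast-like cells came to 96% from 1 cell.

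Gdf10 was highest in matrix cells, at 365 and 234 CPM in double-reporter mice 2 and 3, with a count in 70 of 148 cells (47.3%, interval 39.0 to 55.7, and 29.7% after thinning to equal depth). Pericyte-like cells followed at 74.5 and 38.2, and smooth muscle-like cells at 52.8, 39.4 and 17.4, ranges that overlap. The 38.2 came from 1 of 13 pericyte-like cells of mouse 2, and 84.1% of the 17.4 from 1 smooth muscle-like cell of mouse 3. Over all 71 pericyte-like cells Gdf10 was at 94.65 CPM, which takes in cells of mice with too few for a sum. Valve cells held 2.35, 18.7 and 16.4, Vtn-positive mural cells 7.83 and 1.75, and interstitial cells 2.85. In pericyte-like cells Gdf10 was thus the highest of the 3 ligand genes of the set, Bmp2 and Bmp4 each being below 1 CPM in mice 1 and 2. Bmp5, a ligand outside the set, was at 49.9 and 109.9 CPM in the same 2 sums.

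**Figure D2:**
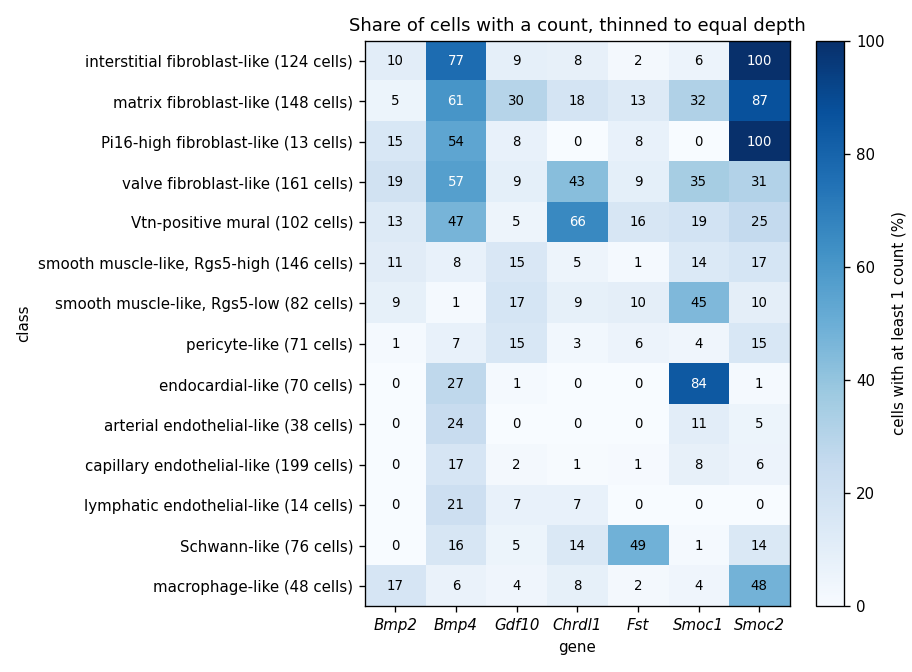
Share of cells with a count of each of 7 genes by class, in percent, after thinning every cell to 50000 counts so that depth is equal. Smoc2 was found in all 124 interstitial cells, and Chrdl1 in 65.7% of Vtn-positive mural cells.

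Among the antagonists, Chrdl1 (X:143285674-143394262, minus strand) encodes a chordin-like protein that binds BMP4. It was highest in Vtn-positive mural cells, at 618 CPM in double-reporter mouse 1 and 1014 in mouse 2, with a count in 85 of 102 cells (83.3%, interval 74.7 to 90.0, and 65.7% after thinning). Valve cells followed at 257, 291 and 469 in mice 1, 2 and 3, below both. Matrix cells held 69.3 and 37.3, Schwann-like cells 26.3, 22.5, 13.1 and 37.0, and interstitial cells 11.1. In Schwann-like cells 1 cell of each mouse held 78.0%, 100%, 83.3% and 75.0% of those counts. Smooth muscle-like cells were at 1.25, 0.604 and 1.38 and pericyte-like cells at 1.24 and 0.647. The Vtn-positive mural sums thus did not overlap with the smooth muscle-like and pericyte-like sums, and lay nearest the valve ones. None of the arterial cells held a count, and C57BL/6 mouse 1 as a whole had Chrdl1 in 4 of 347 cells.

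Within the Vtn-positive mural cells, Chrdl1 was set against Dcn, the decorin gene of fibroblasts. In the 12 cells under 100 CPM of Dcn, Chrdl1 was at 877.7 CPM and was found in 91.7%. In the 39 cells between 100 and 1000 it was at 711.1 (84.6%), and in the 51 cells of at least 1000 at 607.2 (80.4%). Bmp4 was at 80.7, 224.8 and 186.7 CPM over the same steps, with a count in 50%, 53.9% and 64.7% of cells. Smoc1 was at 0.274, 2.50 and 170.6 CPM, Smoc2 at 0.274, 7.59 and 195, and Fst at 58.7, 45.6 and 83.8. All 12 cells of the lowest step came from double-reporter mouse 1, so that step and that mouse cannot be told apart. In that step Bmp4 came mostly from 3 cells, at 147.9, 441.8 and 527.2 CPM. The values describe cells and were not tested.

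**Figure D3:**
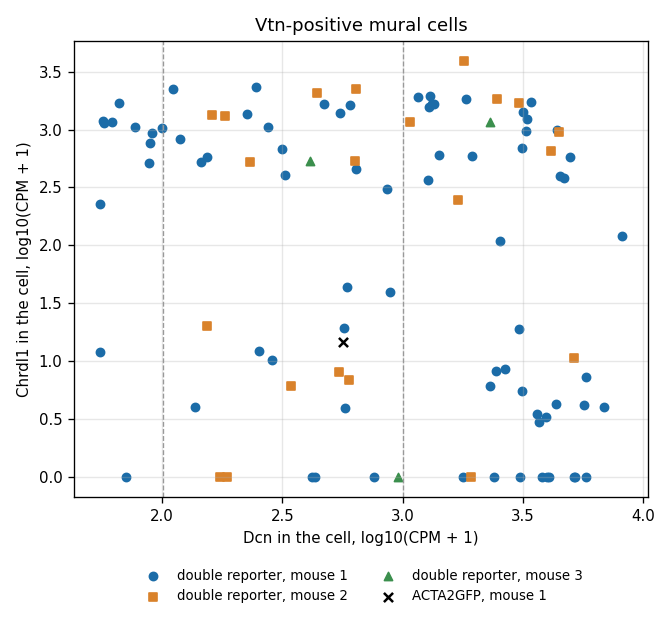
Chrdl1 against Dcn in the 102 Vtn-positive mural cells, both as log10(CPM + 1), 1 point per cell, coloured by mouse. Dashed lines mark 100 and 1000 CPM of Dcn. High Chrdl1 is seen at every level of Dcn, and cells with little or no Chrdl1 occur as well.

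Fst (13:114452290-114458951, minus strand) encodes follistatin, which binds activins and several BMPs. It was highest in Schwann-like cells, the glia of peripheral nerve, at 278, 179, 52.0 and 121 CPM in double-reporter mice 1, 2 and 3 and C57BL/6 mouse 1, with a count in 45 of 76 cells (59.2%, interval 47.3 to 70.4, and 48.7% after thinning). Elsewhere it was uneven between mice. Vtn-positive mural cells held 83.2 in mouse 1 and 0.195 in mouse 2, and valve cells 49.0, 15.2 and 0.889. Matrix cells held 51.8 and 14.4, and smooth muscle-like cells 21.4, 0.470 and 3.597. In valve and smooth muscle-like cells mouse 1 was the highest. Of its exonic bases 115 overlap Gm47040 on the opposite strand.

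Grem1 (2:113746164-113758646, minus strand), the gene of gremlin, another BMP antagonist, was barely detected. It had 6 counts in 6 of 1307 cells, or 0.0162 CPM over all cells. The limit that a count of 0 would allow over all cells is 0.00811 CPM.

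Smoc1 and Smoc2 encode related matrix proteins that bind calcium, and Smoc1 is known to antagonise BMP signalling. Their levels by class differed. Smoc1 (12:81026808-81186414, plus strand) was highest in endocardial cells of C57BL/6 mouse 1, at 810.8 CPM, with a count in 62 of 70 endocardial cells (88.6%, interval 78.7 to 94.9, and 84.3% after thinning). The other endothelial classes of that mouse held 6.36 (capillary), 1.67 (arterial) and 1.42 (lymphatic). Among endothelial classes the gene thus marked endocardial cells in this mouse. Matrix cells held 355 and 112 in double-reporter mice 2 and 3, valve cells 99.8, 120 and 106, and smooth muscle-like cells 125, 122 and 280, of which the last came to 76% from 1 cell. Interstitial cells were at 1.66 and pericyte-like cells at 0.412 and 0.647. Vtn-positive mural cells differed between mice, with 114 in mouse 1 and 1.17 in mouse 2. Within this class Smoc1 was at 170.6 CPM in the cells of at least 1000 CPM of Dcn, and at 2.50 or less in the others. Smoc1 was thus shared by matrix, valve, smooth muscle-like and endocardial cells and near 0 in interstitial and pericyte-like cells.

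Smoc2 (17:14279506-14404790, plus strand) had the most counts of the 8 genes. Interstitial cells held 3473 CPM in double-reporter mouse 3, and the 8 interstitial cells of mouse 2 held 3805. Pi16-high cells followed at 1336, and matrix cells at 1131 and 1316. Valve cells held 22.4, 102 and 34.5, Vtn-positive mural cells 128 and 12.5, and smooth muscle-like cells 4.99, 2.28 and 60.9. The low classes need care in 1 mouse. In double-reporter mouse 3, Smoc2 had a count in 333 of 336 cells (99.1%). Of that mouse's smooth muscle-like, pericyte-like, Schwann-like, macrophage-like, endothelial and endocardial cells, 79 of 81 (97.5%) had a count, at a median of 29.3 CPM. In the same classes the share was 8.37% in mouse 1, 28.4% in mouse 2 and 7.58% in C57BL/6 mouse 1. The part that this mouse or its plate has in the low values was not tested.

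Comparisons between classes were fitted with edgeR's quasi-likelihood test on the sums per mouse, with mouse as a block and p-values adjusted over all genes by Benjamini-Hochberg. A gene was called at an adjusted p under 0.05. The smooth muscle-like sums enter 6 of these comparisons, which therefore share samples. Between smooth muscle-like and valve cells, Bmp4 was lower in smooth muscle by −5.11 ± 0.66 on the log2 scale (SE, adjusted p = 0.00184) and Chrdl1 by −8.28 ± 0.91 (adjusted p = 0.000776), both in 3 of 3 mice. The call took in 2 of the 7 genes tested, against 2.35% of all genes. The median difference was −1.37 over the 7 and −0.04 over all genes. Bmp2, Gdf10, Fst, Smoc1 and Smoc2 did not pass.

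Smooth muscle-like and matrix cells gave a like pair. Bmp4 was lower in smooth muscle by −5.43 ± 0.71 (adjusted p = 0.00279) and Chrdl1 by −5.63 ± 0.86 (adjusted p = 0.00667), in 2 of 2 mice. That is 2 of 7, against 1.42% of all genes. Smoc2 differed by −6.50 ± 2.09 without passing (adjusted p = 0.193). The mesothelial markers of the matrix sums ranged from 0.172 to 1122 CPM, and without the 3 matrix cells that held over 100 CPM of Msln and Upk3b the same number of genes, 2, was called. Between smooth muscle-like and interstitial cells Bmp4 was again lower, by −5.24 ± 1.11 (adjusted p = 0.022), 1 of 7 genes against 1.22% of all. Smoc1 (7.09 ± 1.76, adjusted p = 0.0592) and Smoc2 (−7.94 ± 2.07, adjusted p = 0.0785) missed the threshold there. This comparison needed sums of as few as 4 cells, because interstitial cells reached 10 in 1 mouse alone, and it rests on 8 cells of mouse 2.

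The Vtn-positive mural cells were compared with smooth muscle-like, pericyte-like and valve cells. Against smooth muscle-like cells Bmp4 was higher by 5.13 ± 0.70 (adjusted p = 0.0172) and Chrdl1 by 9.64 ± 0.98 (adjusted p = 0.00253), in 2 of 2 mice, which is 2 of 7 against 0.216% of all genes. With sums of at least 4 cells both calls were lost (adjusted p = 0.0838 for Bmp4 and 0.0633 for Chrdl1), at differences of 5.33 and 9.72. Against pericyte-like cells Bmp4 was higher by 8.32 ± 0.99 (adjusted p = 0.00327) and Chrdl1 by 9.61 ± 1.19 (adjusted p = 0.004), 2 of 7 against 0.46% of all genes. Bmp2 (6.45 ± 1.49, adjusted p = 0.0962) and Smoc1 (6.87 ± 1.77, adjusted p = 0.142) did not pass. Against valve cells none of the 7 was called, at a background of 0.532%, and none had an unadjusted p under 0.05 (DESeq2 also called 0). The sums of Vtn-positive and valve cells thus gave no called difference in any of the genes, with a median over the 7 of −0.19 and over all genes of −0.18.

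Smooth muscle-like against pericyte-like cells gave 1 call of 7, against 1.15% of all genes. Smoc1 was higher in smooth muscle, by 8.51 ± 1.80 (adjusted p = 0.0425), in 2 of 2 mice. Bmp2 (5.71 ± 1.42, adjusted p = 0.0814) and Bmp4 (3.19 ± 0.84, adjusted p = 0.101) leaned the same way and did not pass. The endothelial markers of pericyte-like sums came to 1214 to 1586 CPM and those of smooth muscle-like sums to 431 to 649, and their part in these differences was not tested.

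Schwann-like against smooth muscle-like cells gave the most calls, 4 of 7, against 7.11% of all genes. Bmp2 was lower in Schwann-like cells by −6.61 ± 1.25 (adjusted p = 0.00651), Gdf10 by −6.39 ± 1.401 (adjusted p = 0.0171) and Smoc1 by −8.02 ± 1.33 (adjusted p = 0.00264). Chrdl1 was higher by 4.53 ± 0.79 (adjusted p = 0.00398), a call that rests on about 1 cell per mouse, as given above. Each held in 3 of 3 mice. Schwann-like sums held 4.96 to 4088 CPM of endothelial and 5263 to 9580 CPM of fibroblast markers, smooth muscle-like sums 431 to 649 and 4118 to 4672. When cells rich in endothelial markers were left out, Gdf10 missed the threshold (−6.59, adjusted p = 0.0501) and Bmp4 passed it. The part of the fibroblast markers in the differences was not tested. Fst, the leading gene of the class, differed by 5.19 ± 1.55 and missed the threshold (adjusted p = 0.0643).

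**Figure D4:**
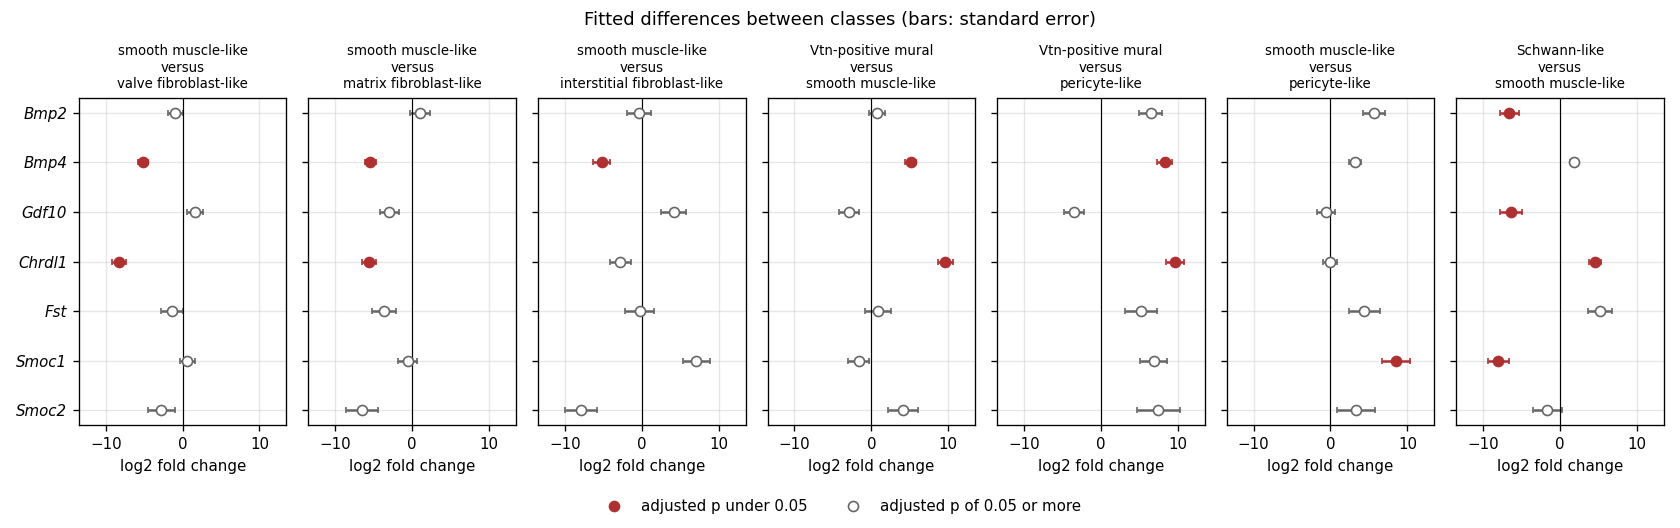
Fitted log2 differences of the 7 tested genes, with standard errors, in the 7 comparisons with a call. Filled points had an adjusted p under 0.05. Chrdl1 and Bmp4 were called wherever smooth muscle-like cells were compared with valve, matrix or Vtn-positive cells.

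Between fibroblast types, no gene of the set passed the test. Valve against matrix called 0 of 7 (0.0333% of all genes), with Gdf10 at −4.59 ± 1.20 (adjusted p = 0.514) and Chrdl1 at 2.65 ± 0.83 (adjusted p = 0.654). These were the 2 genes with an unadjusted p under 0.05, and DESeq2 called 1. Valve against interstitial called 0 of 7 (0.187% of all genes; 3 unadjusted, 2 by DESeq2), with Chrdl1 at 5.65, Smoc1 at 6.46 and Smoc2 at −5.19. Matrix against interstitial called 0 of 7, at a background of 0 called genes (2 unadjusted, 2 by DESeq2). Gdf10 lay 6.96 ± 1.87 and Smoc1 7.95 ± 1.84 higher in matrix. Over all genes DESeq2 called 264 of 28176 for valve against matrix. It called 471 of 28638 for valve and 133 of 28638 for matrix against interstitial. On simulated data for smooth muscle against valve, the fit found 69.1% of genes changed 32-fold and 9.6% of those changed 4-fold. An uncalled gene therefore cannot be read as equal. The comparisons between fibroblast types, with 2 paired mice each, were not simulated.

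Within valve cells, 14 held at least 100 CPM of Coch, a marker of part of the valve, 9 of double-reporter mouse 1 and 5 of mouse 2. Coch-positive cells held 133 and 17.1 CPM of Chrdl1, against 279, 315 and 469 in the Coch-negative cells of 3 mice. No gene of the set was called (0.0293% of all genes were; 2 at an unadjusted p under 0.05, 1 by DESeq2). Chrdl1 differed by −2.54 ± 0.71 and Smoc2 by −5.55 ± 1.89, both with adjusted p = 0.862. Over all genes DESeq2 called 280 of 23212 in this split.

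Smooth muscle-like cells were then divided by Rgs5, a regulator of G-protein signalling found in pericytes and in part of smooth muscle, at 100 CPM in the cell. There were 146 Rgs5-high and 82 Rgs5-low cells, and 26 lay within 2-fold of that level. Smoc1 was at 38.05, 53.4 and 18.3 CPM in the Rgs5-high cells of double-reporter mice 1, 2 and 3 and at 226 and 240 in the Rgs5-low cells of mice 1 and 2. It was found in 26.03% of high and 51.2% of low cells, and in 13.7% and 45.1% after thinning to equal depth. Bmp2 went the other way, with 43.0, 46.1 and 2.04 in high cells and 2.24 and 11.1 in low cells, where mouse 3 breaks the separation. Fst was at 0.381, 0.106 and 0 in high cells and at 45.6 and 1.10 in low cells. The split gave 0 calls of 7 in edgeR, at 0.00716% of all genes, with 3 at an unadjusted p under 0.05, and DESeq2 called those 3. Smoc1 differed by −2.42 ± 0.28 (adjusted p = 0.113), Fst by −5.56 ± 1.81 (adjusted p = 0.408) and Bmp2 by 3.11 ± 1.03 (adjusted p = 0.411). With 5 sums the fit had 1 residual degree of freedom. Over all genes DESeq2 called 911 of 22859. Pericyte markers, of which Rgs5 is one, summed to 6983 to 9632 CPM in high and 455.3 to 633.9 in low cells (7 and 1 of 8 at 100 CPM). Fibroblast markers summed to 2640 to 3709 CPM in high and 5813 to 6452 in low cells, endothelial ones to 605 to 794 in high and at most 210 in low cells, and their part was not tested. When cluster 2 was set against cluster 7 in place of the Rgs5 level, Smoc1 differed by −3.61 (adjusted p = 0.0337).

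**Figure D5:**
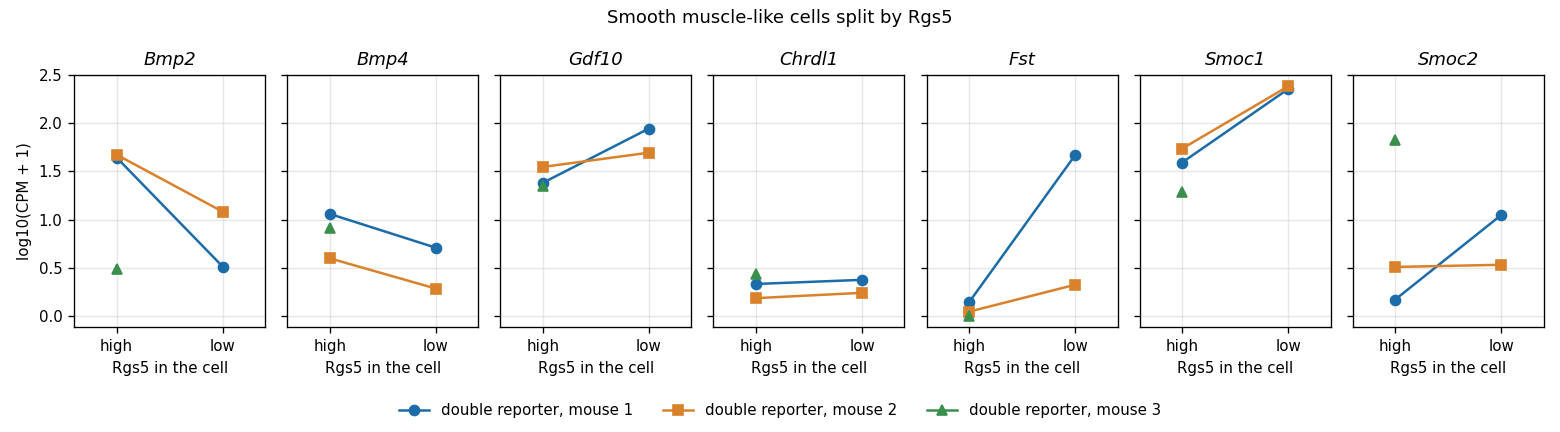
Level of 7 genes, as log10(CPM + 1), in Rgs5-high and Rgs5-low smooth muscle-like cells. Each point is 1 mouse, and lines join the 2 sums of a mouse. Smoc1 was higher in the Rgs5-low cells of both mice that had at least 10 of them (226 and 240 against 38.05 and 53.4).

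The number of calls depended on the number of mice and on how the classes were set. Without double-reporter mouse 1, none of the comparisons of smooth muscle with valve, matrix, Vtn-positive or pericyte-like cells called a member, and neither did Vtn-positive against pericyte-like cells. The same held without mouse 2. Without mouse 1 and without mouse 2 the fit had 4 and 3 residual degrees of freedom in place of 8. Calls over all genes fell as well, so the loss was not particular to the members. Smooth muscle-like against valve cells called 35 of 18295 genes without mouse 1 and 4 of 19849 without mouse 2, in place of 424 of 18043. Against matrix cells 29 genes were called without mouse 1, in place of 256. In the remaining cases a class was left with 1 sum. The fitted differences kept their direction and size: between smooth muscle-like and valve cells Bmp4 was at −5.48 without mouse 1 (adjusted p = 0.0769) and −4.93 without mouse 2 (adjusted p = 0.133), and Chrdl1 at −8.68 (adjusted p = 0.0624) and −8.02 (adjusted p = 0.107). Schwann-like against smooth muscle-like cells kept 1 call without mouse 1 and 1 without mouse 2. Over all genes that comparison called 309 of 18295 and 266 of 19849, in place of 1283 of 18043. The Bmp4 call against interstitial cells was also lost without mouse 2, at a difference of −4.90. Without mouse 3 the Smoc1 call against pericyte-like cells (8.31, adjusted p = 0.116) and the Bmp4 call against interstitial cells (−5.12, adjusted p = 0.3) were lost, at differences close to those with all mice. When cells were gated on a few markers in place of clusters, Bmp4 differed by −2.62 (adjusted p = 0.37) and Chrdl1 by −3.05 (adjusted p = 0.578) between smooth muscle and valve cells. Of the 232 gated smooth muscle cells 24 were Vtn-positive mural cells, and that gate held Bmp4 at 31.2 and Chrdl1 at 65.8 CPM. The gated Vtn-positive cells included 31 smooth muscle-like cells among 107, and the gated pericytes 26 matrix cells among 129. Those 2 gates held Bmp4 at 93.8 and 115 CPM.

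The rest of the pathway was followed through a list of 56 further genes, 49 of them tested in the main fit, in 5 roles. Of these 49, smooth muscle-like cells against valve cells gave 0 higher and 2 lower, beside 2.35% called over all genes. Bmper, a BMP-binding endothelial regulator, was lower by −9.31 ± 1.80 (adjusted p = 0.0174), from 115 to 131 CPM in valve cells. Eng, the co-receptor endoglin, was lower by −2.74 ± 0.42 (adjusted p = 0.00456). Eng was also lower in smooth muscle against matrix cells (−2.62, adjusted p = 0.0151), interstitial cells (−2.92, adjusted p = 0.0159) and pericyte-like cells (−2.57, adjusted p = 0.0173). Of these, pericyte-like sums held more endothelial markers than smooth muscle-like sums, as given above. Fstl1, a follistatin-like gene, was lower against matrix (−1.44, adjusted p = 0.0392) and interstitial cells (−1.46, adjusted p = 0.0405). Eng and Fstl1 were the 2 genes called in each of those 2 comparisons, beside 1.42% and 1.22% of all genes.

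Among target genes, Id2 was higher in smooth muscle-like than in pericyte-like cells by 4.32 ± 0.80 (adjusted p = 0.0268) and in Vtn-positive than in pericyte-like cells by 4.91 ± 0.85 (adjusted p = 0.0249). Id4 was called in both comparisons as well (adjusted p = 0.0405 and 0.0267). It had no count in any of the 71 pericyte-like cells, which allows 0.168 CPM, and was at 80.4 and 118 CPM in Vtn-positive cells. Against pericyte-like cells 2 genes were higher and 1 lower in smooth muscle, and 2 higher in Vtn-positive cells, beside 1.15% and 0.46% of all genes. Vtn-positive against smooth muscle-like cells gave 0 calls of 49 by edgeR (10 unadjusted, 7 by DESeq2), and against valve cells 0 (11 and 6). The Rgs5 split gave 0 of 44 (10 and 10), and the Coch split 0 of 43 (0 and 0). Between fibroblast types the list gave 0 calls for valve against matrix (7 and 0), 0 for valve against interstitial (9 and 3) and 0 for matrix against interstitial cells (4 and 0). Over all genes, the unadjusted shares in these 7 comparisons were, in order, 7.96%, 9.67%, 10.7%, 3.37%, 4.88%, 6.3% and 2.71%. The called shares are given above. DESeq2 called 751 and 1092 of 28176 genes in the 2 Vtn-positive comparisons and 911 of 22859 in the Rgs5 split.

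Schwann-like against smooth muscle-like cells called 15 of the 49, with 4 higher and 11 lower. Over all genes 7.11% were called, 474 higher and 809 lower. Sostdc1, a secreted BMP and Wnt antagonist, was at 298, 707, 613 and 413 CPM in Schwann-like cells, and differed by 12.3 ± 1.49 (adjusted p = 0.000464). Sost, the sclerostin gene, was lower in Schwann-like cells by −10.5 ± 2.80 (adjusted p = 0.04). In smooth muscle-like cells it stood at 151, 97.3 and 105 CPM, the last to 95% from 1 cell. Of the 2 smooth muscle-like clusters, cluster 2 (154 cells) held at most 1.19 CPM per mouse and cluster 7 (74 cells) 315.9 and 324.2. Gdf11, another ligand, was lower by −10.8 ± 2.33 (adjusted p = 0.0136). The median difference over the 49 was −2.22, against −0.36 over all genes.

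For each gene the 3 genes of most similar level over the 24 sums of 13 classes were named by Pearson correlation of log2(CPM + 1), as a description, since the sums share mice and classes. Bmp2 was most like Adamts15 (r = 0.899), Pamr1 (0.887) and Lrrc17 (0.851), and Bmp4 most like Tm2d2 (0.859), Dchs1 (0.807) and Ablim1 (0.791). Gdf10 was most like Foxc2 (0.760), Zfpm2 (0.728) and Enpep (0.727). Among the antagonists, Chrdl1 lay nearest Fbln7 (0.832), Gpnmb (0.777) and Calhm5 (0.773), and Fst nearest Dlgap1 (0.844), Cdh2 (0.834) and Nlgn3 (0.820). Smoc1 lay nearest Col4a6 (0.870), Ptgs2 (0.837) and Thrb (0.830). Smoc2 lay nearest Clec3b (0.934), C3 (0.925) and Dpep1 (0.905), the last a marker used to name interstitial cells.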

How the data were processed

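The authors deposited raw counts of reads for each gene in each cell. The submitters' processing notes name featureCounts (Subread), Bowtie2, Bowtie and bcl2fastq and the build GRCm38 (mm10). Tool versions, order and strand setting are not given in the sources used here. Rows held 46517 genes, 46005 of them with a symbol, and 16915 were at 0 throughout. Cells held 50476 to 811982 counts (median 274702), and no 2 cells held identical values.

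Cells were clustered with scanpy 1.11.5 and leidenalg 0.10.2 under Python 3.11.15 (2000 variable genes, 30 components, 15 neighbours, resolution 1, seed 0) after withholding 2135 genes, the 8 members and all listed genes among them. The 15 clusters were named from 17 marker lists by markers at 100 CPM and 2 times their mean over clusters; 1 cluster of 15 cells stayed unnamed. Scrublet marked 7 doublets, which were kept. Levels are CPM of summed counts, and shares are exact binomial at 95%, also after thinning to 50000 counts (1 count is then 20 CPM). The limit for a count of 0 is 3 counts. Reads have no molecular identifiers, so intervals and limits cover counting error only. The intervals treat pooled cells as independent and do not measure the spread between mice.

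Sums per mouse and class (at least 10 cells) were tested in 1 joint fit of 18 sums and 7 classes, with 8 residual degrees of freedom, using edgeR 4.0.16 (quasi-likelihood, TMM, filterByExpr, mouse as block, Benjamini-Hochberg) in R 4.3.3. The classes of a mouse come from the same animal: deviations from the class means of smooth muscle-like and valve sums correlated within mice (r = 0.111, 0.17 and 0.134 over 8694 genes). The Rgs5 and Coch splits, at 100 CPM in the cell, were fitted alone with 5 sums each. Interstitial cells reached 10 in 1 mouse and Coch-positive cells in none, so those 4 comparisons used sums of at least 4 cells. Of the 13 comparisons, 9 were planned. Those of matrix with smooth muscle-like and with valve cells, of Schwann-like cells, and of Vtn-positive with valve cells were added after levels were seen. Classes were built from the cells that were then tested, so p-values may be too small. Whether mice differ beyond plate is unknown, and p-values measure the spread between these sums.

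The members and lists were chosen with earlier results of these data known. The text names all 8 members. Of the pathway list it names up to 3 called genes per comparison with the largest change and one direction in every mouse, and per member the 3 genes of highest correlation among those averaging at least 20 CPM. Simulated data for smooth muscle-like against valve cells (17494 genes) gave calls for 1 of 59 genes changed 2-fold, 7 of 73 changed 4-fold and 47 of 68 changed 32-fold, with 6 false calls. The tolerance for false calls in that test was loosened after a first version failed it. Alternatives were DESeq2 1.42.0, RLE size factors, no filter, no mouse block, stricter cells (100000 counts and 2000 genes, 1219 cells), no doublets, pairs of classes alone, sums of 4 cells, marker gates and leaving out each mouse. Added after seeing the data were leaving out cells over 500 CPM of 8 endothelial markers, matrix cells over 100 CPM of mesothelial markers or Vtn-positive cells of at least 1000 CPM of Dcn, and 1 cluster against another for the Rgs5 split. Promoters are from RefSeq (GRCm38.p6), which held 3 members.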

Additional observations from a re-analysis of the deposited data

Results flagged for a closer look

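Among Schwann-like cells, the class with 4 mice, 3 of the 8 genes had 1 mouse far from the others, with a gap to the nearest of them beyond Dixon's critical value. That value is set for normal data at about 1 of 20 groups, a rate that sparse counts need not follow. A gene with counts in 1 mouse alone always passes it. The number flagged was therefore not set against chance. Gdf10 was at 1.45 CPM in double-reporter mouse 3 and at most 0.138 in the others, with 6 counts over all 76 cells of the class. Grem1 was at 0.0688 CPM in double-reporter mouse 1, with no count in the others, which is a single read. Smoc2 was at 153 CPM in C57BL/6 mouse 1, 99.8% of it from 1 of 12 cells.

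In the difference between smooth muscle-like and valve cells, the mouse labelled female moved one way and both labelled male the other for Fst (1.28 in double-reporter mouse 3, a log2 difference of CPM + 1) and Smoc2 (0.80). In mouse 3 Fst came from 1 smooth muscle-like cell (13 counts) and 1 valve cell (6 counts). The difference between the mice was not tested, and sex label, mouse and plate cannot be told apart.

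Cells outside the comparisons also held these transcripts. The 11 cells of the 4 small mice held Bmp4 at 9.02 CPM, Chrdl1 at 6.76 and Smoc2 at 108, above the 3.38 CPM that a count of 0 allows. The 15 cells of the unnamed cluster, all of C57BL/6 mouse 1, held Bmp2 at 15.8, Bmp4 at 30.9, Fst at 10.8 and Smoc1 at 1.93 CPM, above a limit of 0.483. The Bmp2 and Fst counts there came from 1 cell each.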

How the results depend on the processing

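Counts of called genes moved in 43 of 188 alternatives by over 1.5 times. Only the number called was compared, and the genes could change at the same number. The pair fit of smooth muscle-like with matrix cells called Bmp4 and Gdf10 in place of Bmp4 and Chrdl1. Schwann-like against smooth muscle-like cells called Bmp4 in place of Gdf10 without cells rich in endothelial markers. Leaving out 1 mouse gave 0 to 2 calls for smooth muscle-like against valve, against matrix and for Vtn-positive mural against smooth muscle-like and against pericyte-like cells, 0 to 1 for smooth muscle-like against pericyte-like, 0 to 3 for smooth muscle-like against interstitial and 1 to 5 for Schwann-like cells. A class left with 1 sum is then assumed to vary like the others. For valve and Schwann-like cells, calls over all genes also fell without mouse 1 or 2, as given above. Marker gates gave 0 calls in smooth muscle-like against valve, pericyte-like, matrix and interstitial and in Vtn-positive against smooth muscle-like cells, and 1 in Vtn-positive against pericyte-like. Over all genes the gates called 233, 80, 131, 146, 4 and 29, in that order. DESeq2 called 3 for smooth muscle-like against pericyte-like, 5 for Vtn-positive against pericyte-like, 3 for the Rgs5 split, 3 for smooth muscle-like against interstitial, 2 each for valve and matrix against interstitial, and 1 each for valve against matrix and the Coch split. Fitting the pair of classes alone gave 1 call for Vtn-positive against smooth muscle-like, 1 for Schwann-like, and 3 each for smooth muscle-like and valve against interstitial cells. These pair fits called 15, 704, 527 and 228 of all genes, in that order. Sums of 4 cells gave 0 for Vtn-positive against smooth muscle-like, where 1 of 17137 genes was called. No filter gave 1 each for the Rgs5 and Coch splits, and cluster 2 against 7 gave 1. The Coch split without a filter called 36 of 23212 genes. Without cells rich in endothelial markers there were 3 calls for smooth muscle-like and 1 for valve against interstitial cells, beside 210 and 46 of 16977 genes. Without Vtn-positive cells rich in Dcn there was 1 call for Vtn-positive against valve cells, of Smoc1. Smooth muscle-like against interstitial cells then gave 2, Bmp4 and Smoc1. Vtn-positive against smooth muscle-like cells then gave 3, Bmp4, Chrdl1 and Smoc1. Of all genes 255, 193 and 42 were called in these comparisons, in that order. Over all genes, DESeq2 called 1591 against 424 for smooth muscle-like versus valve cells and 751 against 39 for Vtn-positive versus smooth muscle-like cells. Versus pericyte-like cells it called 1797 against 207 for smooth muscle-like and 1367 against 83 for Vtn-positive cells. For smooth muscle-like versus interstitial cells it called 1138 against 209. Its calls between fibroblast types and in the Coch split are given above. The Rgs5 split called 1 gene of all by edgeR, 911 by DESeq2, 176 without a filter and 407 by clusters.

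Direction turned in 4 of 362 fitted differences, all under marker gates: Bmp4 for smooth muscle-like against pericyte-like (-2.24), Vtn-positive against pericyte-like (-0.85) and Schwann-like against smooth muscle-like cells (-0.17), and Smoc1 for Vtn-positive against pericyte-like cells (-3.66). The cause was not tested. The 362 cover only members with a lower adjusted p in the fit as reported, called or not. Members with a high adjusted p were not followed in this way. RLE size factors, no replicate block and leaving out doublets gave the same number of called members in every comparison. The Rgs5 and Coch splits gave no value without double-reporter mouse 1 or 2, nor did the Coch split at 500 CPM. The stricter cells and those without endothelial markers gave none for comparisons with pericyte-like cells. Thinning moved 62 of 84 shares.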

Other observations

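Ligand and antagonist were counted in the same cells at a level of at least 20 CPM. Of 124 interstitial cells, 92 held both Smoc2 and Bmp4, and 32 held Smoc2 alone. Of 148 matrix cells, 72 held both, 55 Smoc2 alone and 12 Bmp4 alone. Gdf10 and Smoc2 shared 26 matrix cells, 6 held Gdf10 alone, 101 Smoc2 alone and 15 neither. Smoc1 and Smoc2 shared 32 matrix cells, 8 held Smoc1 alone and 95 Smoc2 alone.

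Chrdl1 and Bmp4 were counted in the same way. Of 102 Vtn-positive mural cells, 30 held both, 31 Chrdl1 alone, 12 Bmp4 alone and 29 neither. Of 161 valve cells, 40 held both, 21 Chrdl1 alone, 45 Bmp4 alone and 55 neither. These are counts of cells from several mice, with no test.

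The number of the 8 genes per cell was counted as well. At that level, 100 of 124 interstitial cells, 109 of 148 matrix cells, 90 of 161 valve cells and 53 of 102 Vtn-positive mural cells held at least 2 of them. Of 228 smooth muscle-like cells, 119 held none.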
